A study of Mus musculus with 6 samples.

Results

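The genes that flank Aldh2 on mouse chromosome 5 were followed in macrophages that lack Aldh2. The 48 members were taken by name from the region around the gene, with Aldh2 itself and the Oas genes left out, and all 48 were among the 16871 genes listed in at least 1 library. RNA was sequenced from macrophages derived in culture from the bone marrow of C57BL/6 mice, 8 weeks old. After 7 days of culture the cells received oxLDL, an oxidised lipoprotein that macrophages take up in arterial plaques. The control group (LKO, 3 libraries) lacks the LDL receptor. The other group (DKO, 3 libraries) lacks the LDL receptor and also ALDH2, the mitochondrial enzyme that oxidises acetaldehyde. All cells, controls included, were therefore LDL receptor knockout cells given oxLDL, and no untreated or wild-type library was analysed here. Nothing in the labels says that the libraries came from separate animals, and the p-values therefore reflect only how far these libraries scatter, which may be technical scatter.

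Genes that sit next to an engineered allele are inherited together with it. A knockout line can for this reason keep flanking DNA of the stem cell strain in which the allele was made, and flanking genes can then differ in sequence or expression from those of the control line. A deletion can also remove or expose regulatory DNA that neighbouring genes use. The stem cell line behind the Aldh2 allele is not given in the sources used here. Loss of ALDH2 and flanking DNA that came with the allele cannot be told apart in these libraries.

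Libraries were of even depth, between 10760625 and 10987584 expected counts. Aldh2 stood at 248.6, 238.6 and 235.6 FPKM (reads per kilobase of transcript, scaled to library size) in the LKO libraries and at 7.00, 7.06 and 7.34 in the DKO libraries, a log2 fold change of -5.01 ± 0.06 (SE). By exact permutation (two-sided) the p was 0.1, which is as low as 3 against 3 libraries can reach. The cells carried the macrophage markers: the summed level of the 10 listed genes was between 10077 and 10792 FPKM in LKO and between 11310 and 12506 in DKO. Of these 10 genes 5 rose in DKO and 1 fell, where 7.42% of all genes tested rose and 6.88% fell. Markers of other marrow cells also moved between the groups. Of 11 neutrophil markers tested, 7 fell in DKO and none rose (summed level 618 to 677 FPKM in LKO, 416 to 455 in DKO), and of 6 lymphocyte markers tested 4 fell (103 to 115 and 80.5 to 87.8 FPKM). Of 8 stromal and fibroblast markers 6 rose (41.0 to 47.1 and 68.1 to 92.8 FPKM). Of 2 dendritic cell markers tested 1 fell (2.10 to 3.86 FPKM in LKO and 1.39 to 2.41 in DKO). Single listed genes near 0 were Cd3e (lymphocyte), Cd209a (dendritic cell) and Klf1 and Alas2 (erythroid). Cpa3, Mcpt8, Ms4a2 and Fcer1a (mast cell and basophil) were also near 0. Other genes of these lists were detected, so these single genes do not show that a cell type was absent. The part of these cells in the results that follow was not tested. In bulk samples, fewer cells of a type and less RNA per cell cannot be told apart.

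Promoter DNA is shown for 4 members. Mapkapk5 is the tested gene just before Aldh2 and did not pass the test. Adam1a is the member with the largest fall. Mmab has a start that faces that of the cholesterol synthesis gene Mvk. Gcn1, the member with the smallest p, was added after its values were seen. The sequences come from RefSeq (GRCm38.p6), 5′ to 3′ on the gene's own strand, and hold only bases before the start that lie in no annotated gene. Those of Mapkapk5 and Adam1a reach the start. The Mmab stretch ends 46 bases before its start and the Gcn1 stretch 146 bases before its start, so the bases nearest the start are not shown for Mmab and Gcn1. Capitals mark CCAAT boxes (CCAAT) and GC boxes (GGGCGG), on either strand.
Mapkapk5, chr5:121545893-121546142, minus strand: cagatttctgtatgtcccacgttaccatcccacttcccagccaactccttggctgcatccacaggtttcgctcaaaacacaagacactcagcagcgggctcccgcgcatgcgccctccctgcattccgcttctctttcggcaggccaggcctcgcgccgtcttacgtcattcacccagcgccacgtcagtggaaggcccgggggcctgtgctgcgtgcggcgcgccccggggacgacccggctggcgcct
Adam1a, chr5:121521696-121521945, minus strand: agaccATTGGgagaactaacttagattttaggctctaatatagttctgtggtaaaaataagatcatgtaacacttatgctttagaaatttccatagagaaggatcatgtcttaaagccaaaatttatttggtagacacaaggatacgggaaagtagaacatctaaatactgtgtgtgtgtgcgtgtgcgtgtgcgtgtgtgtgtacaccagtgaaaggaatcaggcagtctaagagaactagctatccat
Mmab, chr5:114444074-114444263, minus strand: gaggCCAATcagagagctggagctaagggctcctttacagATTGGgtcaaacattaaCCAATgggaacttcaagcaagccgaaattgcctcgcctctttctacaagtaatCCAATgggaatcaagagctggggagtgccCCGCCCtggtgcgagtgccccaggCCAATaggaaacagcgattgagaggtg
Gcn1, chr5:115565013-115565116, plus strand: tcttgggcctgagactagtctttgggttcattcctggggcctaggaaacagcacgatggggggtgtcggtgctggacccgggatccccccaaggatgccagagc

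The Mmab stretch, which lies between the facing starts of Mmab and Mvk, holds 5 CCAAT boxes and 1 GC box in 190 bases. The Adam1a stretch is poor in G and C (38.0% of 250 bases) and holds 1 CCAAT box, while the Mapkapk5 stretch (65.2%) holds neither motif. The 250 bases before the starts of Acad10 and Acacb lie inside annotated genes and are not printed. RefSeq promoters were found for 39 of the 48 members, 50 promoters in all. Their median G and C content was 61.6%, against 52.4% over all 32851 promoters. A GC box was found in 60% of the members' promoters and in 32.7% of all promoters, a CCAAT box in 26.0% and 33.8%, and a TATA box (TATAAA, either strand) in 10% and 12.4%. The core of the interferon-stimulated response element, present in 3.44% of all promoters of 300 bases, was found in none of the 50, and the sterol regulatory element, present in 0.234%, was also found in none. That says only that these letters do not occur in these windows.

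Most of the members were active macrophage genes. In LKO, 33 of 48 had a mean of at least 10 FPKM, and the median member stood at 21.5 FPKM. Arpc3, a subunit of the complex that branches actin filaments, was the most abundant at 518, 440 and 463 FPKM in LKO and 461, 449 and 429 in DKO. At the low end, 5 members were under 1 FPKM in LKO: Acacb, Adam1a, Ift81, Tmem116 and Rasal1. The members passed the filter on low counts in 46 of 48 cases. Rasal1, a Ras GTPase-activating protein, had between 0 and 2 counts in each library. Tmem116, a membrane protein gene whose start faces that of Erp29, had 5, 4 and 6 counts in LKO and 3, 6 and 16 in DKO, so that DKO replicate 3 alone stood above the rest. Neither was tested.

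**Figure D1:**
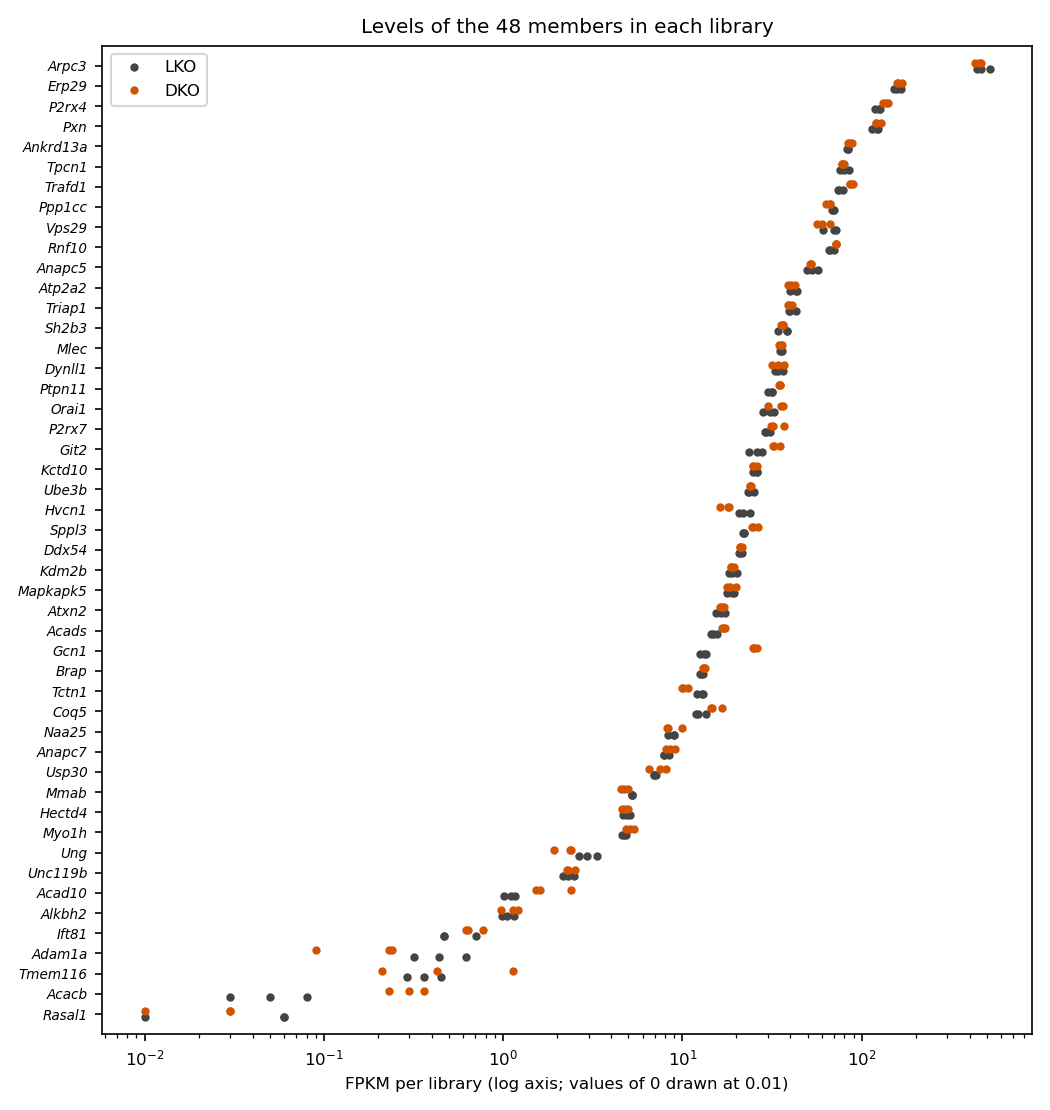
FPKM of the 48 members in each library (log axis), with LKO libraries in grey and DKO libraries in orange, ordered by the LKO mean. For most members the 6 libraries lie together; Gcn1 and Acacb stand out with DKO libraries well to the right of LKO.

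Among the 46 tested members, 13 had an edgeR adjusted p below 0.05: 10 were higher in DKO (Acacb, Gcn1, Acad10, Git2, Coq5, Sppl3, Trafd1, P2rx7, Ptpn11 and P2rx4) and 3 lower (Adam1a, Hvcn1 and Tctn1). That is 28.3% of the members, against 14.3% of the 11809 genes tested across the genome; genes higher in DKO were 7.42% of all genes and genes lower were 6.88%. The typical member hardly moved. The median size of the members' log2 fold changes was 0.08 and that over all genes 0.11, and their signed medians were 0.04 and 0.00. A change of at least 1.5-fold with a call was found in 4 members (8.70%), against 3.38% of all genes, while 9 of the 13 called members differed by less than 1.3-fold. The 4 include Acacb and Adam1a, which met the filter on low counts only through the group where they were higher. The LKO and DKO libraries did not overlap in FPKM in 20 of 46 members (43.5%), against 29.6% of all genes. With limma on log2(FPKM + 1) 7 of 43 members passed, 5 higher and 2 lower, where 10.6% of all genes did.

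The 33 members that did not pass had log2 fold changes from -0.42 (Ung) to 0.31 (Ift81), and 31 of them lay within 1.2-fold of no change. A p that missed the threshold does not show that these genes were equal in both groups.

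**Figure D2:**
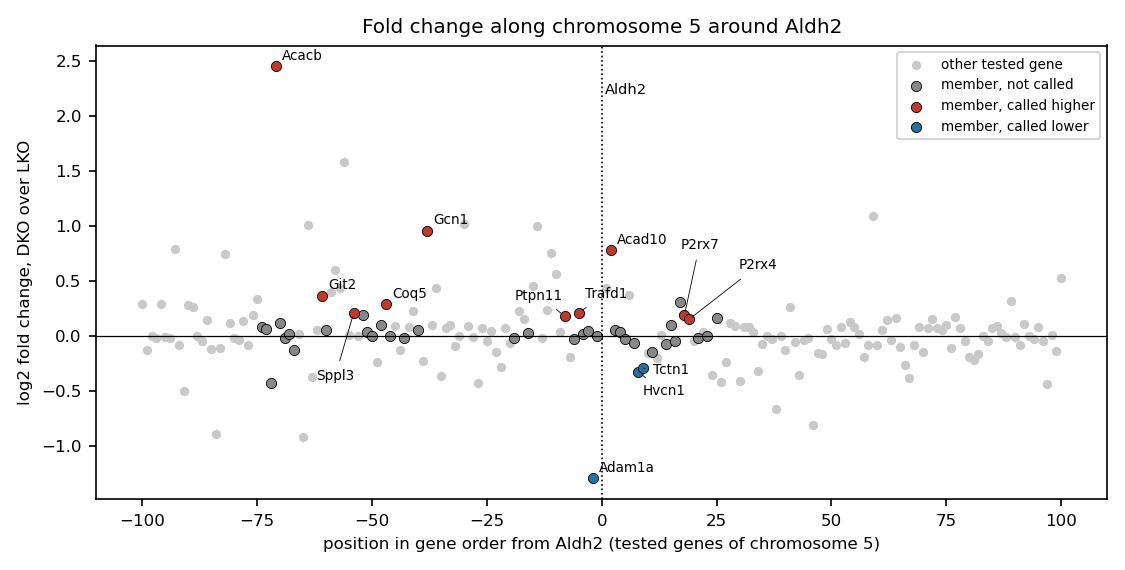
Log2 fold change (DKO over LKO, vertical axis) of the tested genes of chromosome 5 by their place in gene order from Aldh2 (horizontal axis, in tested genes). Called members lie on both sides of Aldh2, from Acacb, 71 tested genes before it, to P2rx4, 19 after it, among members near 0.

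The members were spread over a stretch of 99 tested genes besides Aldh2, from 74 tested genes before it (Usp30) to 25 after it (Orai1). The 53 other tested genes of that stretch were taken by position between the outermost members. The members were chosen with earlier results of these data known, so the ends of the stretch are not independent of the data. These 53 genes gave 15 calls, 10 higher and 5 lower, which is 28.3%, the same share as the members. Among them were 8 Oas and Oasl genes, which encode interferon-induced sensors of double-stranded RNA and relatives, and of these 6 rose. Without them, 9 of 45 (20%) passed, 4 higher and 5 lower. Outside the stretch, chromosome 5 gave 87 calls among 651 tested genes (13.4%), and 2.00% of those genes passed with at least 1.5-fold, against 10.1% of the stretch. That 10.1% includes the Oas and Oasl genes, of which 3 of 8 passed at that fold. The share was 8.70% of the members and 6.67% of the other genes without Oas and Oasl. The members' share includes Acacb and Adam1a, which met the filter on low counts only through their higher group. These shares are descriptions of position, and neighbouring genes are not independent of each other. In the 10 tested genes before Aldh2 5 passed, and in the 10 after it 4. Blocks far from Aldh2 gave as many: 5 of the 10 tested genes at places 51 to 60 before it, and 4 of the 10 at places 61 to 70. The other blocks of 10 that touch the stretch gave from 0 to 3. Among members, 6 of the 14 within 10 tested genes of Aldh2 passed (3 higher, 3 lower), and 7 of the 32 farther away (all 7 higher).

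**Figure D3:**
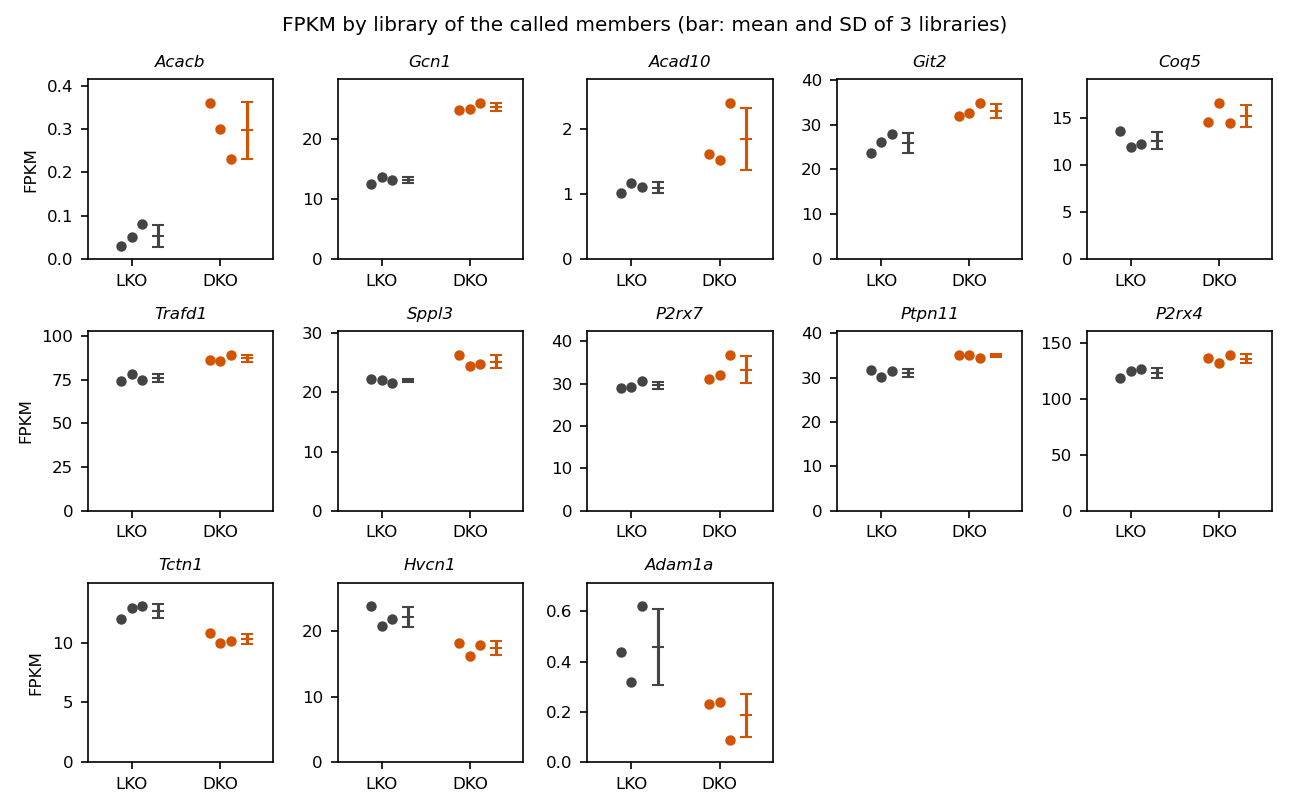
FPKM of the 13 called members in each of the 3 LKO and 3 DKO libraries, with the mean and SD beside the points and each vertical axis starting at 0. The libraries of the groups do not overlap in any of the 13 panels, where 29.6% of all genes tested did not overlap. The panels were picked by the test on these same libraries, so the lack of overlap is no separate support. Gcn1 shows the widest gap relative to its spread.

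The members closest to Aldh2 show how mixed the region was. Mapkapk5, a kinase activated by MAP kinases, is the tested gene just before it and stood at 19.5, 17.6 and 18.95 FPKM in LKO and 17.7, 19.8 and 18.3 in DKO (log2 fold change 0.00 ± 0.07 SE). The groups overlapped fully. Adam1a, which encodes an ADAM protein known from sperm, lay 1 gene farther out at a low level, with 15, 11 and 21 counts in LKO and 8, 8.26 and 3 in DKO. It met the filter on low counts only through its LKO libraries, and fell 2.45-fold (log2 fold change -1.29 ± 0.42 SE, edgeR adjusted p = 0.0407). That call was lost in DESeq2 (adjusted p = 0.186), with the replicate block (0.0632), in edgeR without a count filter (0.0537) and in limma without a filter (0.132). It was also lost without LKO replicate 1 (0.0736), LKO replicate 3 (0.187), DKO replicate 1 (0.0659), DKO replicate 2 (0.0611) or DKO replicate 3 (0.2). Erp29, a chaperone of the endoplasmic reticulum, was abundant and level, at 165, 158 and 151 FPKM in LKO and 168, 158 and 160 in DKO. Naa25, the auxiliary subunit of an N-terminal acetyltransferase, was at 8.97, 8.33 and 8.96 in LKO and 8.19, 8.29 and 9.95 in DKO.

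On the far side of Aldh2, the next tested gene is Acad12, which is not a member. It was called higher in DKO (log2 fold change 0.44, edgeR adjusted p = 0.0365). The member Acad10, the tested gene after Acad12, encodes a mitochondrial member of the acyl-CoA dehydrogenase family. Its level was 1.01, 1.17 and 1.11 FPKM in LKO and 1.61, 1.53 and 2.40 in DKO, with DKO replicate 3 the highest. It rose 1.71-fold (log2 fold change 0.78 ± 0.19 SE, edgeR adjusted p = 0.00583), on between 40.1 and 95.8 counts a library. The call was lost without DKO replicate 3 (adjusted p = 0.0768) and in the limma fits (adjusted p from 0.0672 to 0.126). Brap, a ubiquitin ligase that binds the BRCA1 protein and tunes Ras signalling, starts 40 bases away from Acad10 on the opposite strand. It was at 13.1, 12.5 and 12.7 FPKM in LKO and 13.2, 13.3 and 13.0 in DKO (edgeR adjusted p = 0.617). The ratio of Acad10 to Brap was 0.077, 0.093 and 0.087 in LKO and 0.122, 0.115 and 0.184 in DKO, without overlap. Exact permutation of that ratio (two-sided) gave 0.1 as well. The next members, Atxn2 (an RNA-binding protein) and Sh2b3 (the adaptor LNK, a brake on cytokine receptors), did not pass. Atxn2 was at 15.5, 17.2 and 16.5 FPKM in LKO and 16.3, 17.1 and 16.6 in DKO, and Sh2b3 at 34.0, 38.5 and 38.2 in LKO and 36.2, 35.7 and 36.3 in DKO.

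Gcn1 was the member with the clearest change. It encodes a large ribosome-bound protein that senses collided ribosomes and is needed to activate the kinase GCN2, which slows translation when amino acids run short. Its level was 12.5, 13.6 and 13.2 FPKM in LKO and 24.8, 25.04 and 26.0 in DKO, so that every DKO library stood far above every LKO library. The rise was 1.94-fold (13.1 ± 0.542 to 25.3 ± 0.603 FPKM, SD, n = 3 each; log2 fold change 0.96 ± 0.05 SE, edgeR adjusted p = 7.95e-12) and rested on means of 1231 counts in LKO and 2398 in DKO. It passed under all 16 alternative fits, with log2 fold changes between 0.74 and 0.98. Gcn1 lies 38 tested genes before Aldh2. The other members for RNA, translation and protein maturation did not pass: besides Erp29, Naa25 and Atxn2 these were Ddx54, an RNA helicase, and Mlec, a lectin of the endoplasmic reticulum, with log2 fold changes of 0.03 and 0.00. In this group 1 of 6 members rose and none fell, where 7.42% of all genes tested rose and 6.88% fell. The role groups hold few genes, and their counts here and below are descriptions only.

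**Figure D4:**
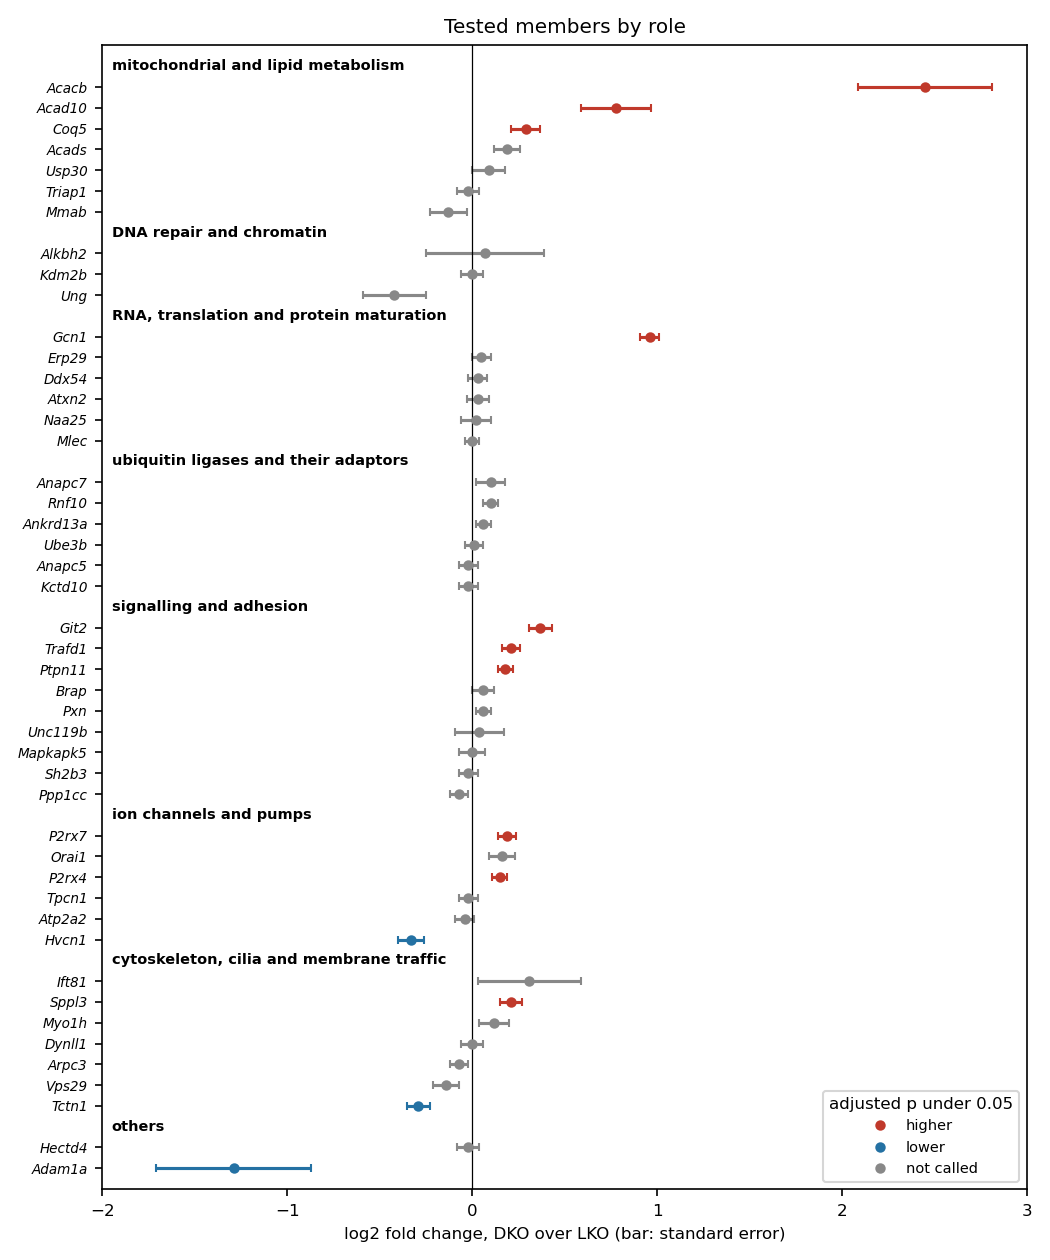
Log2 fold change (DKO over LKO, horizontal axis) with its standard error for the 46 tested members, grouped by role; red marks members called higher, blue those called lower and grey those not called. Metabolism holds the largest rise (Acacb, 2.45), and no ubiquitin ligase member is called.

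Metabolic members rose in 3 of 7 cases and none fell (all genes tested: 7.42% rose, 6.88% fell). Acacb, the acetyl-CoA carboxylase of the mitochondrial surface, makes the malonyl-CoA that limits fatty acid entry into mitochondria. It was barely present, at 0.03, 0.05 and 0.08 FPKM in LKO and 0.36, 0.30 and 0.23 in DKO. These values come from 3, 5 and 7 counts in LKO and 34, 28 and 22 in DKO, and they did not overlap. The fitted rise was 5.47-fold (log2 fold change 2.45 ± 0.36 SE, edgeR adjusted p = 5.06e-05), and the gene passed in the 12 alternatives that tested it. Acacb met the filter on low counts only through its DKO libraries, so in the main fit it was tested only because that group was high. Even in DKO its level was a small part of that of most members. Coq5, a methyltransferase of coenzyme Q synthesis, was at 13.6, 11.9 and 12.2 FPKM in LKO and 14.6, 16.6 and 14.5 in DKO. It rose 1.22-fold (edgeR adjusted p = 0.0162), with a gap between the groups smaller than their ranges. The Coq5 call was lost in DESeq2 (adjusted p = 0.106), in the limma fits (0.0539 to 0.115), and without LKO replicate 2 (0.0786), LKO replicate 3 (0.0616) or DKO replicate 2 (0.113).

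The other metabolic members did not pass. Acads, the short-chain acyl-CoA dehydrogenase of fatty acid oxidation, was at 14.4, 15.7 and 14.9 FPKM in LKO and 16.7, 17.0 and 17.2 in DKO; its groups did not overlap, yet the edgeR adjusted p was 0.0744. Mmab, which makes the active form of vitamin B12 for mitochondria, was at 5.26, 5.26 and 5.20 FPKM in LKO and 4.73, 4.55 and 5 in DKO (edgeR adjusted p = 0.451). Its facing neighbour Mvk, the mevalonate kinase of cholesterol synthesis, was at 7.51, 9.92 and 8.23 in LKO and 8.44, 10.4 and 7.06 in DKO (edgeR adjusted p = 0.964). Usp30, a deubiquitinase of the mitochondrial outer membrane, and Triap1, a small protein of mitochondrial lipid transfer, had log2 fold changes of 0.09 and -0.02.

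Signalling and adhesion members rose in 3 of 9 tested cases and none fell (all genes tested: 7.42% rose, 6.88% fell). Git2, a scaffold and GTPase-activating protein for Arf proteins at focal adhesions, was at 23.6, 26.2 and 27.8 FPKM in LKO and 31.9, 32.6 and 34.8 in DKO. It rose 1.29-fold (log2 fold change 0.37 ± 0.06 SE, edgeR adjusted p = 9.44e-05) and passed under all 16 alternatives. Ankrd13a, a ubiquitin-binding protein whose start faces that of Git2 at a distance of 360 bases, was at 82.8, 83.5 and 83.4 in LKO and 86.1, 84.1 and 87.9 in DKO (edgeR adjusted p = 0.427). The ratio of Git2 to Ankrd13a was 0.285, 0.314 and 0.334 in LKO and 0.370, 0.387 and 0.396 in DKO, again without overlap. This second ratio had the same exact permutation p of 0.1, and neither of the 2 ratios tested can pass 0.05 in this design. Git2 and Acad10 had already passed the test in these libraries, so the gaps in their ratios are no separate support. No ratio was taken for the other facing pairs. Facing starts are common in the region: 5 pairs of members and 4 pairs of a member and another gene start within 1000 bases of each other on opposite strands.

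Trafd1, a zinc finger protein that restrains innate immune signalling and is itself induced by interferon, was at 74.2, 78.2 and 75.1 FPKM in LKO and 86.5, 85.9 and 89.3 in DKO. The rise was 1.16-fold with tight groups (log2 fold change 0.21 ± 0.05 SE, edgeR adjusted p = 0.00229), and it held under all 16 alternatives. Ptpn11, the tyrosine phosphatase SHP2, which relays growth factor signals to Ras, was at 31.6, 30.1 and 31.5 in LKO and 35.2, 35.1 and 34.6 in DKO. It rose 1.13-fold (edgeR adjusted p = 0.00776), a call lost after quantile normalization (limma adjusted p = 0.0587) and without LKO replicate 2 (0.0656). Besides Mapkapk5, Brap and Sh2b3, the members Pxn (paxillin, an adaptor of focal adhesions), Ppp1cc (a catalytic subunit of protein phosphatase 1) and Unc119b (a carrier of lipid-modified proteins) did not pass, with log2 fold changes between -0.07 and 0.06.

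Ion channels and pumps moved in both directions, with 2 of 6 members higher and 1 lower (all genes tested: 7.42% higher, 6.88% lower). P2rx7 and P2rx4, neighbouring genes for channels that open on extracellular ATP, are abundant in macrophages, where P2rx7 is known as a trigger of the inflammasome. P2rx7 was at 29.0, 29.3 and 30.6 FPKM in LKO and 31.1, 32.1 and 36.9 in DKO, with DKO replicate 3 highest, a 1.14-fold rise (edgeR adjusted p = 0.0203). P2rx4 was at 118, 125 and 127 in LKO and 136, 132 and 139 in DKO, a 1.11-fold rise (edgeR adjusted p = 0.023). Both are small changes near the threshold. The P2rx7 call was lost without LKO replicate 1 (0.0514), LKO replicate 2 (0.0501) or DKO replicate 3 (0.19). For P2rx4 it was lost without LKO replicate 1 (0.0553), LKO replicate 2 (0.0572), DKO replicate 1 (0.0654) or DKO replicate 3 (0.137), and with upper-quartile scaling (0.0512). In the limma fits neither passed (adjusted p from 0.161 to 0.256 for P2rx7 and from 0.0687 to 0.108 for P2rx4). P2rx4 shares 11360 bases of its span with Camkk2 on the opposite strand, and whether reads of the overlap bear on its value was not tested.

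Hvcn1, the voltage-gated proton channel that carries charge during the oxidative burst of phagocytes and is also known from B cells, was at 23.7, 20.7 and 21.8 FPKM in LKO and 18.2, 16.2 and 17.9 in DKO. It fell 1.26-fold (log2 fold change -0.33 ± 0.07 SE, edgeR adjusted p = 0.00119) and passed under all 16 alternatives. Neutrophil and lymphocyte markers fell in the same libraries (given above), and their part in the fall of Hvcn1 was not tested. Its neighbour Tctn1, a protein of the ciliary transition zone, was at 12, 12.9 and 13.03 in LKO and 10.8, 9.97 and 10.1 in DKO. It fell 1.22-fold (log2 fold change -0.29 ± 0.06 SE, edgeR adjusted p = 0.00243), again under all 16 alternatives. Hvcn1 and Tctn1 lie on opposite strands and share 2803 bases at their ends, and the strand setting of the counting is not given in the sources used here. The deposited expected counts of both genes were whole numbers in all 6 libraries, and whether reads of the shared bases bear on both falls was not tested. The calcium channel Orai1, the lysosomal channel Tpcn1 and the calcium pump Atp2a2 did not pass, with log2 fold changes of 0.16, -0.02 and -0.04. Leaving out DKO replicate 2 brought Orai1 past the threshold (edgeR adjusted p = 0.0292).

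Among members for the cytoskeleton, cilia and membrane traffic, 1 of 7 rose and 1, Tctn1, fell (all genes tested: 7.42% rose, 6.88% fell). Sppl3, an intramembrane protease of the Golgi that releases glycosyltransferases, was at 22.2, 22.1 and 21.7 FPKM in LKO and 26.4, 24.4 and 24.8 in DKO. It rose 1.16-fold (edgeR adjusted p = 0.0156), with the groups apart. That call was lost in DESeq2 (adjusted p = 0.0623), in limma without a filter (0.0501) and without LKO replicate 3 (0.0553) or DKO replicate 1 (0.09). Arpc3, the dynein light chain gene Dynll1, the retromer subunit gene Vps29, the myosin gene Myo1h and the ciliary transport gene Ift81 did not pass, with log2 fold changes from -0.14 (Vps29) to 0.31 (Ift81, at 15 to 25 counts a library).

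None of the 6 ubiquitin ligases and adaptors passed, where 14.3% of all genes tested did, and their log2 fold changes stayed between -0.02 and 0.10. They include Anapc5 and Anapc7, subunits of the anaphase-promoting complex, at means of 53.0 and 8.04 FPKM in LKO and 52.0 and 8.53 in DKO. Ube3b and Kctd10 start 12 bases apart on opposite strands; Ube3b averaged 23.9 FPKM in both groups, and Kctd10 at 25.6 in LKO and 25.1 in DKO. Rnf10 went from 67.4 to 71.7 FPKM without overlap (edgeR adjusted p = 0.152). The DNA repair and chromatin members did not pass either. Ung, the glycosylase that removes uracil from DNA, was at 3.33, 2.64 and 2.94 FPKM in LKO and 2.35, 2.40 and 1.92 in DKO, without overlap but with an edgeR adjusted p of 0.101. Alkbh2, a repair enzyme for alkylated DNA whose start faces that of Ung, had between 12 and 15 counts a library, and Kdm2b, a histone demethylase, averaged 19.1 FPKM in LKO against 18.9 in DKO. Hectd4, a large protein with a ubiquitin ligase domain, had a log2 fold change of -0.02.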

How the data were processed

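Each library's file, 3 per group by the labels, holds an expected count (the authors' estimate, unscaled, of each gene's reads, per the file headers) and an FPKM value (the deposited count scaled to length and depth by the authors). The submitters' processing notes name Bowtie 0.12.2 and build mm8; how reads were counted, and with which strand setting, is not given in the sources. Genes absent from a file were taken as 0. Of 16871 gene numbers 16832 matched a symbol in a GRCm38 RefSeq table. Gene order, the distances between facing starts and the bases shared by neighbours come from GRCm38 positions. The processing notes name another build for the reads, so these positions describe the reference and not the mapping.

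After rounding, expected counts went through the quasi-likelihood test of edgeR 4.0.16 (R 4.3.3, filterByExpr, TMM, no block). P-values were adjusted by Benjamini-Hochberg over all 11809 genes tested, and 0.05 was the threshold; standard errors come from the fold change and F. On counts simulated for DKO against LKO (11703 genes), edgeR recovered 50% of genes changed 1.25-fold and 86% at 2-fold, and 6.79% of its calls were false, above the 5% aimed at. The simulation changed a far smaller share of genes than were called in the data, so these rates need not hold for the data. Alternatives were DESeq2 1.42.0, other scalings, filters and thresholds, a replicate block, limma 3.58.1 on log2(FPKM + pseudocount), which understates changes of low genes, and each library left out. Within groups, chi-square per degree of freedom between libraries was at least 1.68, more than counting noise alone gives, so no libraries were merged; technical repeats could also differ by this much. The members, role groups and lists were chosen with earlier results of these data known, and the GC, CCAAT and TATA box searches were added after the values were seen. Values by library are given for members that passed, the 4 nearest to Aldh2 on each side and those not tested; others named by library were chosen after their values were seen.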

Additional observations from a re-analysis of the deposited data

How the results depend on the processing

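Of the 13 called members, 6 (Gcn1, Git2, Trafd1, Hvcn1, Tctn1 and Acacb) passed under every alternative fit that tested them, and 7 lost their call in some; no called member changed direction. Of 33 members not called, 1 (Orai1) passed in an alternative. The count of called members, 13, was 7 in limma on log2(FPKM + 1), also with pseudocounts of 0.1 and 5 and without a filter, 6 after quantile normalization, 8 at an adjusted p of 0.01, 4 with at least 1.5-fold, and 7 without the members within 10 tested genes of Aldh2. Leaving out 1 library gave between 9 and 12. The median log2 fold change of the members, 0.036, was 0.015 with upper-quartile scaling, 0.020, 0.010 and 0.022 in limma with pseudocounts of 1 and 5 and without a filter, 0.023 after quantile normalization and 0.057 without the nearest members; leaving out 1 library gave 0.024 to 0.051. Calls in the whole stretch, 28, were 14 among the nearest 50 tested genes (fewer genes tested) and 22 among the nearest 100. They were 23 in DESeq2, 19 to 21 in the limma fits and 23 to 26 with 1 library left out. DESeq2 called 10 members, where it called 9.3% of all genes. The cause of the other differences was not tested.

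Same-numbered libraries did not deviate together (correlations of 0.018, -0.056 and -0.027). The values thus gave no sign of pairing, but they cannot show how the libraries were prepared, and the labels do not say whether the numbers pair the samples. With the replicate block 12 members passed and the calls in the stretch were 27. Acacb, Adam1a and Acad10 rest on under 100 counts a library, which limits their precision. Acacb and Adam1a met the filter on low counts only through their higher group.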
